A study of Mus musculus with 7 samples.

Results

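The genes described here are Igf2bp1, Igf2bp2 and Igf2bp3, Lin28a and Lin28b, Trim71, Hmga1, Hmga2 and Arid3b, which are linked in the literature to the microRNA family let-7. They were picked by gene symbol, and their levels were followed through lung development. Of the 9 genes, 8 had a row among the 21121 genes listed in each library. Lin28b had no row and was not analysed here. Of the 8, 7 passed the filter on low values and were among 12964 genes tested, and Lin28a did not pass. The cells were lung epithelial cells of C57BL/6 mice at E13.5, E15.5 and E18.5, counted in days of embryonic development, and at P14 and P56, counted in days after birth. All were sorted as living cells that carried Epcam and lacked CD31, CD45, Ter119 and CD146, so each library is a mixture of the epithelial cell types of its stage. The labels give no transgene, mutation or treatment and no sex of the animals. E13.5, E15.5 and P14 had 1 library each, and E18.5 and P56 had 2. RNA with a poly(A) tail was amplified and read by 3' SAGE sequencing, which counts short tags from the 3' ends of transcripts. Whether the paired libraries came from separate animals is not in the labels, so p-values measure only the spread between these libraries.

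Mature let-7 is a small RNA that guides Argonaute proteins to messenger RNAs and lowers their level and translation. The proteins Lin28a and Lin28b bind let-7 precursors and keep them from being processed, and both are themselves let-7 targets. In many tissues Lin28 is high in the embryo and mature let-7 accumulates as cells differentiate. Several messenger RNAs that let-7 holds down encode embryonic proteins. Among them are the Igf2bp proteins, which bind messenger RNAs such as that of Igf2, and the Hmga proteins, which bind AT-rich DNA and shape chromatin. Trim71 is the mammalian counterpart of lin-41, an early known let-7 target in the worm Caenorhabditis elegans. Hmga2 is known from the embryonic lung, where it is present early in development, and from lung tumours.

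The let-7 sequences are shown because the 3' untranslated regions (3' UTRs) of all 9 genes hold a match to them. Of 11 mature let-7 and miR-98 sequences of the mouse, taken from RefSeq (GRCm38.p6), 10 share the seed, bases 2 to 8, which is in capitals. The eleventh, let-7j, differs in the seed.
let-7a: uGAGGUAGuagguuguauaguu
let-7b: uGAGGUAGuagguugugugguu
let-7d: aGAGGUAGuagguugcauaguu
let-7g: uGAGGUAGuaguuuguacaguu
miR-98: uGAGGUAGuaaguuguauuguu
let-7j: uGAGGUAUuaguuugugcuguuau

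The longest annotated 3' UTR of each gene (GENCODE vM21, GRCm38/mm10) was searched on the strand of the messenger RNA for CTACCTC, the complement of the shared seed. Where an A follows, the match has 8 bases, CTACCTCA, which contains the shorter one. A match describes the letters and does not show that let-7 binds there. The first match of each gene is printed at the end of a window of 30 bases, and the capitals mark the match.
Igf2bp1, chr11:95961778-95961785, minus strand: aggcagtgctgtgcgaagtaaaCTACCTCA
Igf2bp2, chr16:22059473-22059480, minus strand: gagaaaaacacacaaataaaagCTACCTCA
Igf2bp3, chr6:49086787-49086794, minus strand: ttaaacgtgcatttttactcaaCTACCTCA
Lin28a, chr4:134005189-134005196, minus strand: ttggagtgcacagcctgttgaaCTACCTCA
Lin28b, chr10:45381022-45381029, minus strand: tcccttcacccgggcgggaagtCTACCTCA
Trim71, chr9:114512472-114512479, minus strand: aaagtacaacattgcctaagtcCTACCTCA
Hmga1, chr17:27563292-27563298, plus strand: catcttctcctctgttcacaaaCTACCTCt
Hmga2, chr10:120364224-120364231, minus strand: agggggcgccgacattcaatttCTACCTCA
Arid3b, chr9:57790362-57790368, minus strand: atgtttatatttcaataaagctCTACCTCt

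Igf2bp1, Trim71, Hmga2 and Lin28b held 4 matches each. In Trim71 all 4 matches were followed by A, in Igf2bp1 3 of 4, and in Hmga2 and Lin28b 1 of 4. Lin28a held 2 matches, both followed by A. Igf2bp2 and Igf2bp3 held 1 match with the A, and Hmga1 and Arid3b held 1 match without it. Of 21004 genes with an annotated 3' UTR, 9.03% held at least 1 match, 3.06% held at least 1 followed by A, and 0.152% held at least 3. Long UTRs hold more matches. For the next shares, longer 3' UTRs were cut to the length of the gene described, which is itself counted. At least as long as the 6337 bases of Igf2bp1 were the 3' UTRs of 376 genes. Within their first 6337 bases, 36.7% held a match and 0.266% held 4 or more. At least as long as the 3014 bases of Hmga2 were those of 2779 genes. Within their first 3014 bases, 17.4% held a match and 0.072% held 4 or more. These genes were picked partly as known let-7 targets, so the matches describe them and are no independent result. Mature let-7 was not measured in these libraries.

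**Figure D1:**
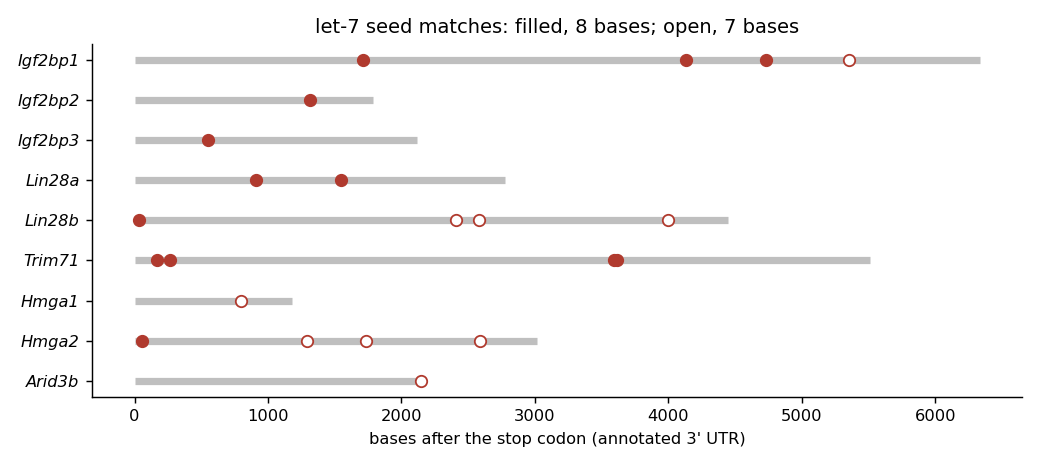
Positions of let-7 seed matches in the longest annotated 3' UTR of the 9 genes, in bases after the stop codon (x axis); grey bars are the UTRs, filled points matches of 8 bases and open points matches of 7. Igf2bp1, Lin28b, Trim71 and Hmga2 have 4 matches each, and the last pair in Trim71, at 3591 and 3617 bases, overlaps in the drawing.

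The libraries held between 2559927 and 3895740 reads. The deposited values are tag counts scaled by 1 factor per library, called scaled counts below, and 1 read was worth between 0.236 and 0.385 of them. The sort was checked with its own markers. Epcam had a scaled count of 55.8 to 213, Cdh1, the epithelial cadherin, of 104 to 286 and Nkx2-1, a lung epithelial transcription factor, of 502 to 1969. Ptprc, which encodes CD45, stood at 0 to 1.10, and Pecam1, which encodes CD31, at 0 to 0.945. The 5 immune markers with a row summed to 0.236 to 4.14, except at P14, where they summed to 24.5, nearly all of it Csf1r at 22.3 (log2 change 4.31 against E18.5; limma, adjusted p = 0.0430). Endothelial markers summed to 1.65 to 14.7, most of it Kdr except at P14, and erythroid markers to 0 to 49.0, with 0 and 49.0 in the E18.5 pair. Summed markers of dividing cells were 13.2 to 21.9 in the 5 libraries of E18.5 and later, against 779 and 663 at E13.5 and E15.5. All 8 of these markers had a read in the early libraries, and 3 to 7 of them later. The 14 mesenchymal markers summed to 96.8 to 257 at E18.5 and later, against 2608 and 1395 early. Most of the early sum was Vim, and without it the sum was 56.4 to 132 at E18.5 and later, against 43.7 at E13.5 and 202 at E15.5. Pdgfrb was at 0 in every library except E15.5, where it stood at 1.79. The part of these shifts in the results that follow was not tested. Where a library of E18.5 or P56 is left out below, the value comes from edgeR on the recovered reads unless limma is named. In these fits limma called no gene and has 1 residual degree of freedom.

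The Igf2bp genes encode 3 related proteins that bind messenger RNA. Igf2bp3 (ENSMUSG00000029814.10, chr6:49085223-49214957, minus strand) had a scaled count of 326 in the E13.5 library, 165 in E15.5, 91.2 and 127 in the E18.5 pair, 2.75 in P14 and 0 and 0.324 in the P56 pair. The P56 value of 0.324 was a single read, against 1378 reads at E13.5. Every later stage lay below every earlier one, with no overlap between libraries of different stages. At P56 against E18.5, 25% of all tested genes were lower with no overlap, and E13.5, E15.5 and P14 had 1 library each. Igf2bp3 averaged 0.162 ± 0.229 at P56 and 109 ± 25.5 at E18.5 (SD, n = 2 each). With reads pooled by stage, it was 723-fold lower at P56 than at E18.5, with a 95% counting interval of 129 to 28599-fold. P14 was 39.8-fold lower than E18.5 (21.5 to 83.4-fold). The log2 change on the scale of log2(scaled count + 1), which understates the change of low genes, was -6.56 ± 0.31 (SE) for P56 against E18.5 (limma, adjusted p = 7.17e-05). For P14 against E18.5 it was -4.86 ± 0.38 (limma, adjusted p = 0.00185). Both falls kept their direction in edgeR with each E18.5 or P56 library left out. For E18.5 against the mean of E13.5 and E15.5 it was -1.10 ± 0.31 (limma, adjusted p = 0.0343), and without the E13.5 library -0.61 (adjusted p = 0.383). Igf2bp3 passed the filter on low values only through libraries before birth, so its falls after birth are not independent of the filter. It was also called in limma at P14 and at P56 against E18.5 without that filter. In these sorted populations, fewer cells with a transcript and less of it per cell cannot be told apart.

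Igf2bp1 (ENSMUSG00000013415.9, chr11:95957163-96005940, minus strand), known for binding and stabilising messenger RNAs in the embryo, had a scaled count of 61.4 in the E13.5 library, 18.7 in E15.5, 13.9 and 18.8 in the E18.5 pair and 2.20 in P14. No read was found at P56. Igf2bp1 passed the filter on low values only through libraries before birth, so its falls after birth are not independent of the filter. Without the filter limma called it at P56 against E18.5 but not at P14 against E18.5. The E13.5 library stood above all others, and E15.5 lay within the spread of the E18.5 libraries. Against a floor of 3 reads over the stage, Igf2bp1 was 36.0-fold lower at P56 than at E18.5. The counting interval began at 28.7-fold. The log2 change was -4.10 ± 0.38 (SE; limma, adjusted p = 0.000779). P14 was 7.44-fold lower than E18.5 (counting interval 3.61 to 17.8-fold), with a log2 change of -2.42 ± 0.47 (limma, adjusted p = 0.0412). The E15.5 library was 0.304 times the E13.5 library (counting interval 0.221 to 0.410), a comparison with no replicates and no test. E18.5 against the early stages missed the threshold, with a log2 change of -1.03 ± 0.38 (limma, adjusted p = 0.0816). That contrast turned on the early libraries, since the change was -0.20 (adjusted p = 0.846) without E13.5 and -1.86 (adjusted p = 0.0279) without E15.5.

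Igf2bp2 (ENSMUSG00000033581.17, chr16:22059009-22163299, minus strand), the family member known to persist in adult tissues, had a scaled count of 22.2 in the E13.5 library, 11.5 in E15.5, 15.0 and 29.0 in the E18.5 pair, 6.33 in P14 and 3.13 and 2.59 in the P56 pair. It kept reads in every library, and the E18.5 libraries lay on both sides of the E13.5 value. Igf2bp2 averaged 2.86 ± 0.381 at P56 and 22.0 ± 9.90 at E18.5 (SD, n = 2 each), a 7.67-fold lower pooled level (counting interval 4.70 to 13.2-fold). The log2 change was -2.51 ± 0.40 (SE; limma, adjusted p = 0.00763). Between E18.5 and the early stages the log2 change of 0.37 ± 0.40 missed the threshold (limma, adjusted p = 0.531) and had no settled direction, at -0.088 without the second E18.5 library and -0.08 without E15.5, both in limma. P14 against E18.5 also missed it, at -1.58 (limma, adjusted p = 0.147), although the P14 library lay below both E18.5 libraries. The longest identical stretch between annotated transcripts of any pair of the 3 Igf2bp genes was 28 bases.

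Lin28a (ENSMUSG00000050966.9, chr4:134003330-134018841, minus strand), which blocks let-7 maturation, had 1 read in all 7 libraries together, in the first E18.5 library, where its scaled count was 0.385. In the libraries with no read, the floor of 3 reads equals a scaled count of 0.709 to 1.13. Lin28a was therefore not detectable beyond single reads at this depth at any of the 5 stages, and no fold change is given. Trim71 (ENSMUSG00000079259.2, chr9:114507133-114564369, minus strand), an RNA-binding ubiquitin ligase of embryonic and stem cells, had a scaled count of 7.56 in the E13.5 library, 8.97 in E15.5 and 1.93 and 1.51 in the E18.5 pair. No Trim71 read was found at P14 or P56. Trim71 passed the filter on low values only through the E13.5 and E15.5 libraries, so a fall from those stages is not independent of the filter. The early libraries stood above both E18.5 libraries, and the E15.5 to E13.5 ratio of 1.19 had a counting interval of 0.674 to 2.07 that spans 1. E18.5 was lower than the early stages by a pooled factor of 4.74 (counting interval 2.33 to 10.9), with a log2 change of -1.77 ± 0.48 (SE; limma, adjusted p = 0.0310). This call rests on 9 reads at E18.5 and 57 reads early, and it was lost in edgeR (adjusted p = 0.0529) and without E13.5 (limma, adjusted p = 0.0915) or E15.5 (limma, adjusted p = 0.0793). P56 was 3.77-fold lower than E18.5 against the floor of 3 reads over the stage, and the counting interval began at 2.48-fold. The log2 change of -1.44 ± 0.48 missed the threshold in limma (adjusted p = 0.0956) and passed it in edgeR (adjusted p = 0.0404), though not in edgeR without the first P56 library (adjusted p = 0.171) or the second (adjusted p = 0.143).

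**Figure D2:**
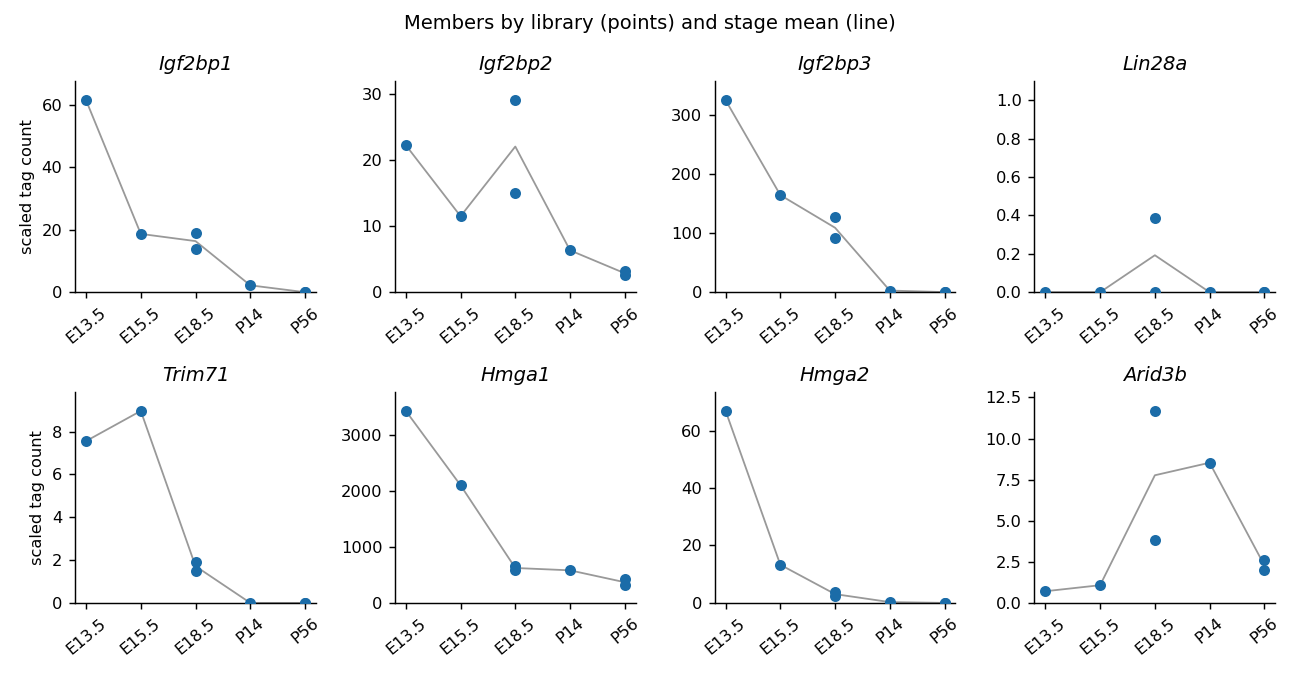
Scaled tag count (y axis, a separate linear scale from 0 in each panel) of the 8 genes with a row at the 5 stages (x axis); points are libraries and grey lines join stage means. Igf2bp1, Igf2bp3, Hmga1 and Hmga2 are highest at E13.5, Trim71 at E15.5 and Arid3b at E18.5 and P14, and Lin28a has a single read.

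Hmga1 and Hmga2 encode small chromatin proteins that bind AT-rich DNA. Hmga2 (ENSMUSG00000056758.14, chr10:120361275-120476469, minus strand) had a scaled count of 66.9 in the E13.5 library, 13.3 in E15.5, 3.85 and 2.26 in the E18.5 pair and 0.275 in P14, which was 1 read. It had no read at P56. Hmga2 passed the filter on low values only through libraries before birth, so its falls after birth are not independent of the filter. Without the filter its limma call at P56 against E18.5 was lost. Every stage lay below the one before it, with no overlap. The last step, from P14 to P56, was from 1 read to none, and the counting interval of that ratio, 0 to 21.5, spans 1. At P56 against E18.5, 25% of all tested genes were lower with no overlap. The E15.5 library was 0.199 times the E13.5 library (counting interval 0.137 to 0.280), with no replicates and no test. E18.5 was 15.0-fold lower than the early stages in pooled reads (counting interval 9.07 to 26.5-fold), with a log2 change of -2.97 ± 0.46 (SE; limma, adjusted p = 0.00349). Without E13.5 the change was -1.84 and missed the threshold (limma, adjusted p = 0.102). P56 was 6.70-fold lower than E18.5 against the floor of 3 reads over the stage, and the counting interval began at 4.85-fold. The log2 change was -1.99 ± 0.46 (limma, adjusted p = 0.0288). That change had an adjusted p of 0.00465 in edgeR, where it kept its direction with each E18.5 or P56 library left out. P14 against E18.5 had a log2 change of -1.64 (limma, adjusted p = 0.178).

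Hmga1 (ENSMUSG00000046711.16, chr17:27556497-27563674, plus strand) had a scaled count of 3425 in the E13.5 library, 2098 in E15.5, 579 and 666 in the E18.5 pair, 581 in P14 and 424 and 313 in the P56 pair. It kept at least 967 reads in every library, and the P14 library lay between the E18.5 libraries. E18.5 was 4.65-fold lower than the early stages in pooled reads (counting interval 4.48 to 4.83-fold), with a log2 change of -2.11 ± 0.20 (SE; limma, adjusted p = 0.000506). This was called without E13.5 (-1.75, adjusted p = 0.00649) and without E15.5 (-2.46, adjusted p = 0.000528). The P14 library and E18.5 differed by a log2 change of -0.10 (limma, adjusted p = 0.880). Hmga1 averaged 369 ± 78.4 at P56 and 623 ± 61.8 at E18.5 (SD, n = 2 each). That log2 change of -0.77 ± 0.20 passed narrowly in limma (adjusted p = 0.0477) and in edgeR (adjusted p = 0.0196). It was lost in edgeR without the second P56 library (-0.62, adjusted p = 0.198).

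Hmga2-ps1, which RefSeq lists as a transcribed pseudogene, was counted in a row of its own. Its scaled count was 28.4 in the E13.5 library, 2.87 in E15.5, 0 and 8.67 in the E18.5 pair, 18.4 in P14 and 13.4 and 30.4 in the P56 pair. It thus had reads at P14 and P56, where Hmga2 had 1 read and none. Annotated genes on the opposite strand overlap Hmga1, Hmga2, Igf2bp1, Igf2bp3, Lin28a, Arid3b and Trim71, and strand use in the authors' counting was not given in the sources used here.

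**Figure D3:**
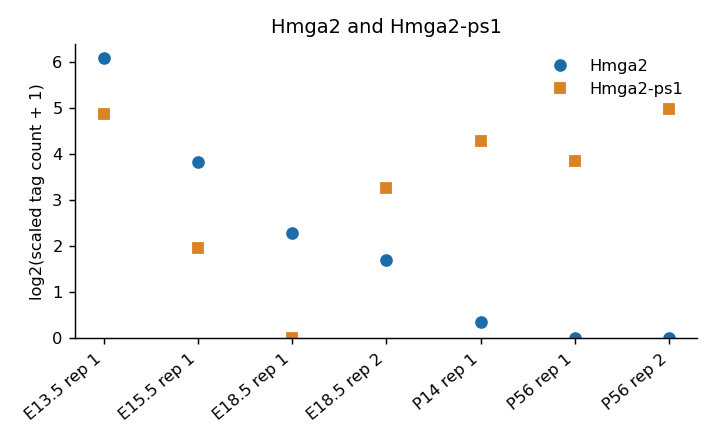
Log2(scaled tag count + 1) (y axis) of Hmga2 and Hmga2-ps1 in each of the 7 libraries (x axis). Hmga2-ps1 has reads in both P56 libraries, where Hmga2 has none.

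Arid3b (ENSMUSG00000004661.15, chr9:57790353-57836793, minus strand), a DNA-binding protein with an ARID domain and a let-7 target, ran the other way before birth. Its scaled count was 0.709 in the E13.5 library, 1.08 in E15.5, 3.85 and 11.7 in the E18.5 pair, 8.53 in P14 and 1.99 and 2.59 in the P56 pair. Both E18.5 libraries stood above the early ones and above both P56 libraries, but they differed 3.03-fold from each other. E18.5 was 9.13 times the early stages in pooled reads (counting interval 3.86 to 26.3), with 41 reads against 6. The log2 change was 2.06 ± 0.57 (SE; limma, adjusted p = 0.0321), and it was lost in edgeR without the second E18.5 library (2.10, adjusted p = 0.120) and in limma without E13.5 (1.92, adjusted p = 0.117). The call was also lost without the filter on low values. Arid3b passed that filter only through E18.5 and P14, where it was high, so the rise is not independent of the filter. Arid3b averaged 2.29 ± 0.424 at P56 and 7.76 ± 5.54 at E18.5 (SD, n = 2 each). The log2 change of -1.26 ± 0.57 missed the threshold (limma, adjusted p = 0.194). In edgeR that contrast passed without the first E18.5 library (-2.40, adjusted p = 0.00661) and had an adjusted p of 0.641 without the second. Markers of alveolar type 1 cells also stood higher at E18.5, with summed scaled counts of 5516 and 6223, against 22.2 at E13.5 and 496 at E15.5. They summed to 5611 at P14 and to 3010 and 3466 at P56, where Aqp5 made up most of the sum at 2545 and 3000. The other 4 of these 5 markers were called lower at P56 than at E18.5, where 6.15% of all tested genes were. Examples were Clic5 at 232 ± 7.93 against 2917 ± 243 and Pdpn at 1.64 ± 0.492 against 51.1 ± 8.86 (SD, n = 2 each; limma, adjusted p = 7.17e-05 and 0.000296). The part of cell composition in the Arid3b values was not tested.

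Over the 5 stages together, 6 of the 7 tested genes differed (limma F test, adjusted p under 0.05), where 30.3% of all tested genes did. Their stage means ranged over 8.15 on the log2 scale in Igf2bp3 (adjusted p = 3.66e-05), 6.08 in Hmga2 (adjusted p = 0.00123) and 5.96 in Igf2bp1 (adjusted p = 0.000485). The range was 3.32 in Trim71, 3.23 in Hmga1 and 2.59 in Igf2bp2, all called. Each of these calls was lost under some other setting tried with all libraries. Arid3b ranged over 2.48 and missed the threshold (adjusted p = 0.0890). It had an adjusted p of 0.0335 in edgeR.

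At P56, 5 of the 7 genes fell relative to E18.5 (limma, adjusted p under 0.05), namely the 3 Igf2bp genes, Hmga1 and Hmga2, and none rose. Of all genes tested 6.15% were called lower in that comparison and 8.07% higher. In edgeR 6 fell, Trim71 being the sixth, against 7.89% of genes. The limma median log2 change was -1.99 over the 7 genes and 0.06 over all genes. Markers of cell types moved in the same comparison. Those of alveolar type 2 cells summed to 41878 and 46808 at P56, against 8897 and 8384 at E18.5, and 4 of the 5 rose. Of the 5 distal tip progenitor markers, Sox9 (log2 change -4.45) and Shh (-2.31) fell and Etv5 (2.08) rose. Msln, a mesothelial marker, had a mean of 2.50 at P56 and 641 at E18.5 (-7.60), while of the other 3 mesothelial markers no read was found at E18.5. The part of these shifts was not tested. At E18.5, 4 of the 7 fell relative to E13.5 and E15.5, namely Igf2bp3, Hmga1, Hmga2 and Trim71, and 1, Arid3b, rose, against backgrounds of 13.4% lower and 15.8% higher. In edgeR 3 fell, all of these but Trim71, and Arid3b rose, with 12.9% of genes called lower. The limma median was -1.10 over the 7 and 0.03 over all genes. Without E13.5 only Hmga1 of these was called, and far fewer of all genes were called as well. Without E15.5 those called were Hmga1, Igf2bp3, Igf2bp1, Hmga2 and Arid3b, and the number called over all genes hardly changed. At P14, 2 of the 7 fell relative to E18.5, Igf2bp1 and Igf2bp3, against a background of 1.24% lower and 1.87% higher. The same 2 fell in edgeR, where 2.13% of genes were called lower. Between P56 and P14 none of the 7 was called by limma or edgeR, where 0.694% of genes were called lower and 0.123% higher by limma and 1.49% lower by edgeR. At an unadjusted p under 0.05 there were 3 of 7 in limma, where 1340 of 12964 genes passed, and 4 of 7 in edgeR, where 1428 did. Igf2bp1 and Igf2bp3 passed there in edgeR without the first E18.5 library (adjusted p = 0.00265 and 0.00705) or without the second (adjusted p = 0.00270 and 0.00718). Those fits called 745 and 731 genes, against 267 with all libraries. Igf2bp3 also passed in edgeR without the second P56 library (adjusted p = 0.0418), where 203 genes were called. The comparisons share libraries, those of E18.5 in particular, so their values are set side by side and not counted against each other. The calls that held under every other setting tried with all libraries were those of Igf2bp1 and Igf2bp3 at P56 against E18.5 and of Hmga1 and Hmga2 at E18.5 against the early stages. At P56 against E18.5 the settings that ended a call gave an adjusted p of 0.148 for Igf2bp2, 0.0504 to 0.264 for Hmga1 and 0.0511 to 0.109 for Hmga2. At E18.5 against the early stages they gave 0.0587 to 0.143 for Igf2bp3, 0.0524 to 0.185 for Arid3b and 0.0529 to 0.379 for Trim71, and Igf2bp1 passed with an equal total per library (adjusted p = 0.0493) and with a pseudocount of 5 (adjusted p = 0.0330). At P14 against E18.5 they gave 0.0543 to 0.200 for Igf2bp1 and 0.0670 for Igf2bp3. A contrast that includes P14 assumes that its lone library varies like the replicated stages.

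**Figure D4:**
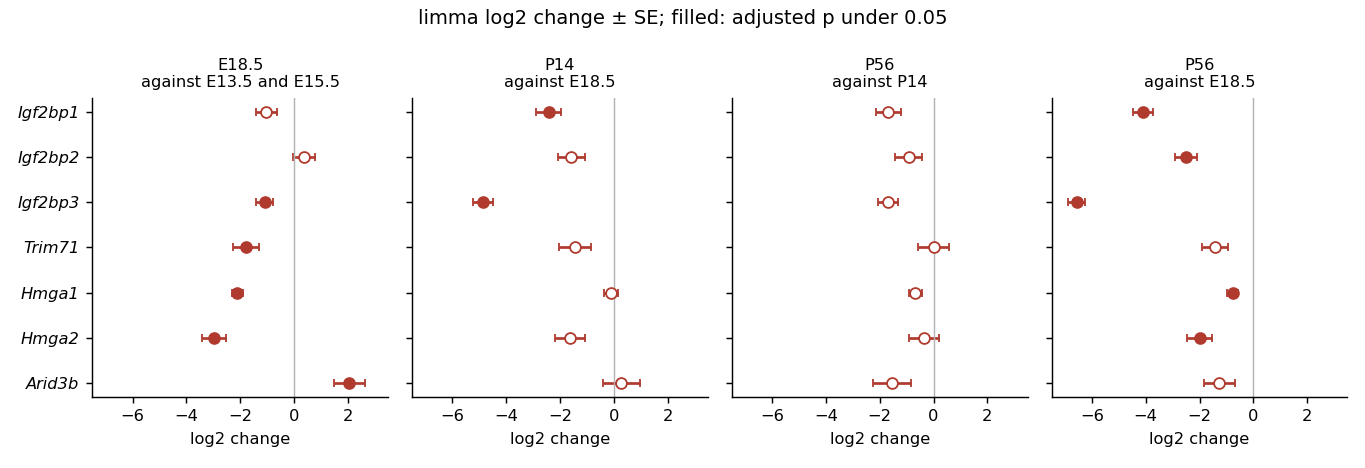
Log2 change of scaled tag count + 1 (x axis) with its SE (bars) for the 7 tested genes (rows) in 4 stage comparisons (panels), from limma; filled points have an adjusted p under 0.05. For P56 against E18.5 all 7 changes lie below 0 and 5 are filled, while between P56 and P14 none is filled.

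Igf2bp1, Igf2bp2, Igf2bp3, Hmga1 and Hmga2 had their highest stage mean at E13.5, Trim71 at E15.5 and Arid3b at P14. At E15.5 Hmga2 stood at 19.9% of its highest mean, Igf2bp1 at 30.4%, Igf2bp3 at 50.6%, Igf2bp2 at 51.7% and Hmga1 at 61.3%. At E18.5 Hmga2 stood at 4.57% of its highest stage mean, Hmga1 at 18.2%, Trim71 at 19.1%, Igf2bp1 at 26.6% and Igf2bp3 at 33.6%. Igf2bp2, lower at E15.5, stood at 99.1% and Arid3b at 91.1%. At P14 Igf2bp3 was at 0.845%, Igf2bp1 at 3.58% and Igf2bp2 at 28.5%, and Hmga1 was at 17.0%. At P56 Hmga1 kept 10.8% and Igf2bp2 12.9% of their highest means, and Igf2bp3 0.0497%. Summed markers of dividing cells were already at 1.74% of their highest value at E18.5, at 2.12% at P14 and at 2.76% at P56. The called falls of Igf2bp3, Hmga1, Hmga2 and Trim71 at E18.5 lay over the same interval as the fall of those markers. The called falls of the Igf2bp genes, Hmga1 and Hmga2 after E18.5 came when the markers were already low. How far the share of dividing cells bears on the earlier or the later falls was not tested.

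**Figure D5:**
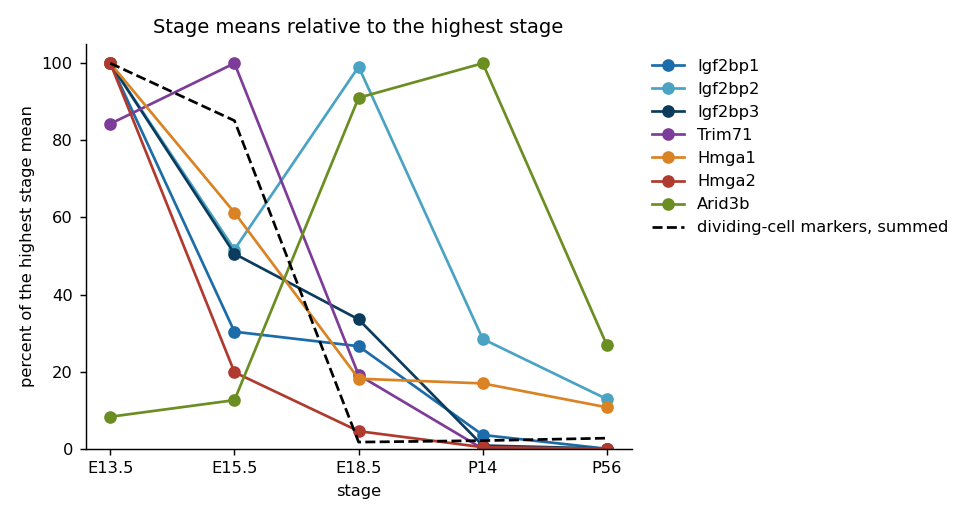
Stage mean as a percentage of the highest stage mean (y axis) over the 5 stages (x axis, not to time scale) for the 7 tested genes (colours) and the summed markers of dividing cells (dashed). At E18.5 the dividing-cell markers are at 1.74% and Hmga2 at 4.57%, while Igf2bp2 is at 99.1% and Arid3b at 91.1%.

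The genes that make, load and turn over microRNAs were followed as well. Of 26 tested, 1 fell and none rose at P56 relative to E18.5 (limma; median log2 change -0.34, against 0.06 over all genes), where 6.15% of all genes fell and 8.07% rose. The gene that fell was Ago3, an Argonaute, at 21.1 ± 7.92 at P56 and 48.5 ± 6.53 at E18.5 (SD, n = 2 each; log2 change -1.20, adjusted p = 0.0486). At E18.5, 5 of the 26 fell and 1 rose relative to the early stages (median -0.26, against 0.03), where 13.4% of all genes fell and 15.8% rose. Msi1, an RNA-binding protein that in other cells acts with Lin28 on let-7 precursors, had a mean of 1.32 at E18.5, against 91.0 at E13.5 and 32.3 at E15.5 (log2 change -4.70, adjusted p = 0.00120). Hnrnpa1 (-1.39, adjusted p = 0.00300) and Khsrp (-0.75, adjusted p = 0.0220), which bind the let-7 precursor with opposite effects on its processing, both fell. Tnrc6a (-1.04, adjusted p = 0.0472) and Ago1 (-0.76, adjusted p = 0.0314), parts of the silencing complex, fell as well. None of the 26 was called at P14 against E18.5 or at P56 against P14 by limma. Of all genes, 1.24% fell and 1.87% rose in the first of these comparisons, and 0.694% and 0.123% in the second.

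Of 42 other let-7 targets tested, 8 fell and 2 rose at P56 relative to E18.5 (limma; median log2 change -0.12), against 6.15% of all genes lower and 8.07% higher. Igf2, the growth factor, stood at 1.11 ± 1.17 at P56 and 47.3 ± 14.6 at E18.5 (SD, n = 2 each; log2 change -4.60, adjusted p = 0.000912). Hic2, a transcriptional repressor, fell too (log2 change -3.09, adjusted p = 0.000751), as did Igf1r, a receptor for insulin-like growth factors (-2.94, adjusted p = 0.000938), and Pgrmc1 (-2.77, adjusted p = 0.00115). Ccnd1, which encodes cyclin D1, rose to 66.5 ± 10.8 at P56, against 6.67 ± 0.910 at E18.5 (log2 change 3.13, adjusted p = 0.000554). It had stood higher still at E13.5, at 98.5. At E18.5, 13 of the 42 fell and 1 rose relative to the early stages (median -0.67), against 13.4% of all genes lower and 15.8% higher. Among those that fell were the cell-cycle genes Ccnd1 (-2.87, adjusted p = 0.000426), Cdc25a (-2.21, adjusted p = 0.00743) and Ccnd2 (-1.79, adjusted p = 0.00326), with Igf2 (-2.85, adjusted p = 0.00369). At P14 relative to E18.5, 2 fell and 1 rose, where 1.24% of all genes fell and 1.87% rose. Between P56 and P14 none was called by limma, beside shares of 0.694% lower and 0.123% higher.

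Of 19 tested transcripts known to be bound by Igf2bp proteins, 5 fell and 4 rose at P56 relative to E18.5 (limma; median log2 change -0.03), beside shares of 6.15% lower and 8.07% higher over all genes. H19, an imprinted noncoding RNA next to Igf2, had a mean of 5921 at E13.5, 9692 at E15.5, 373 at E18.5, 7.15 at P14 and 0 at P56. Its log2 change was -8.55 for P56 against E18.5 (adjusted p = 5.56e-06) and -4.34 for E18.5 against the early stages (adjusted p = 2.19e-05). Ptgs2, a prostaglandin synthase, rose by a log2 change of 4.38 (adjusted p = 0.000286) and Cd44, a hyaluronan receptor, by 2.97 (adjusted p = 0.00249). Ccnd1 and Igf2 stand in this list as well. At E18.5, 7 of the 19 fell and 3 rose relative to the early stages, beside shares of 13.4% and 15.8% over all genes, with Mki67, a marker of dividing cells (-5.29, adjusted p = 0.000215), and Cd24a (-2.24, adjusted p = 0.00263) among those that fell. At P14 relative to E18.5, 3 fell and 3 rose, where 1.24% of all genes fell and 1.87% rose. At P56 relative to P14 1 fell, beside shares of 0.694% lower and 0.123% higher.

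Igf2bp proteins also read the m6A mark on messenger RNA. None of the 18 tested writers, readers and erasers of that mark was called at P56 against E18.5 by limma (median log2 change 0.26). Of all genes, 6.15% fell and 8.07% rose there. At E18.5, 4 of the 18 fell and none rose relative to the early stages, where 13.4% of all genes fell. They were Hnrnpc (-1.97, adjusted p = 0.000361), Hnrnpa2b1 (-1.15, adjusted p = 0.00873), Rbm15b (-1.06, adjusted p = 0.0115) and Fto, an eraser of the mark (adjusted p = 0.0120). Of 12 other high mobility group genes tested, 7 fell and 1 rose at E18.5 relative to the early stages (median -1.47), beside the same share of 13.4% lower over all genes. Among those that fell were Hmgb3 (log2 change -3.16, adjusted p = 0.000940), Hmgn2 (-3.03, adjusted p = 0.00431), Hmgb2 (-2.97, adjusted p = 0.000674) and Hmgn3 (-2.55, adjusted p = 0.00167). All 8 dividing-cell markers fell in the same comparison (median -4.16), and their part in these falls was not tested. At P56 against E18.5, 1 of the 12 fell and 1 rose (median -0.26), beside 6.15% lower and 8.07% higher over all genes.

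Likeness over the 5 stage means was measured as the root mean square distance on the log2 scale after each gene was centred on its own mean, over 5847 candidate genes. It is a description with no test. Nearest to Igf2bp1 were Fscn1 (distance 0.419), Peg3 (0.451) and Frem2 (0.479), where the median candidate was at 2.19. Fscn1, which encodes the actin-bundling protein fascin, is itself in the list of transcripts bound by Igf2bp proteins. Nearest to Igf2bp2 were Igf1r (0.235), Arhgap32 (0.266) and Ndrg2 (0.352), with a median of 1.15. Igf2bp3 was nearest to Ror2 (0.612), Mest (0.735) and Ddah1 (0.902), with a median of 3.31. Hmga1 lay at 0.141 from the cyclin-dependent kinase gene Cdk4 and at 0.158 from Pwp1, with a median of 1.34. The transcription factor gene Sox11 (0.289), Lppr3 (0.355) and Dbn1 (0.377) were nearest to Hmga2, with a median of 2.36. Trim71 was nearest to the DNA replication and repair genes Rfc5 (0.215) and Topbp1 (0.269) and to Foxp2 (0.273), a transcription factor of the lung epithelium, with a median of 1.55. Arid3b was nearest to Pcolce (0.191), the basement membrane collagen gene Col4a2 (0.219) and Arhgef26 (0.236), with a median of 1.09.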

How the data were processed

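The authors deposited 1 table per library with a signal per gene, which is a tag count divided by 1 factor per library. This was read from the values, since each column gave whole reads for 100% of genes within 0.01 when divided by its smallest step. The submitters' processing notes name the mm10 build, Bowtie2 2.2.5 and R 3.4.0. Not given in the sources used here are the counting program, annotation, filters and scaling. The genes described and all lists were chosen with earlier results of these data known.

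Genes that passed edgeR's filterByExpr by stage on recovered reads (12964 of 21121) were tested with limma-trend on log2(signal + 1). The fit had 7 libraries, 1 coefficient per stage, robust variance estimates, 2 residual degrees of freedom and Benjamini-Hochberg adjustment over all 12964 genes, with calls at an adjusted p under 0.05. E15.5 and E13.5 have 1 library each and were compared as a ratio without a test. Counting intervals are exact 95% intervals (Clopper-Pearson) on pooled reads. They and the floor of 3 reads cover counting error only. Tags without molecular identifiers are not independent molecules. Levels were compared within a gene, since 3' tags capture genes to different degrees.

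Of each other list, genes called in P56 against E18.5 or E18.5 against the early stages whose higher stages averaged 20 or more were eligible for naming, at most 5 per list and comparison, by size of change. Likeness took the 3 nearest tested genes with a highest stage mean of at least 20. Not every gene that these rules name is reported here. Other pseudocounts, filters, scalings, edgeR and DESeq2 on recovered reads, a replicate block and fits without single libraries were tried too, and the edgeR fits with a library left out were added after the data were seen. The fits were tested on simulated data. Let-7 sequences are from RefSeq and 3' UTRs from GENCODE vM21. Versions were limma 3.58.1, DESeq2 1.42.0 and edgeR 4.0.16 under R 4.3.3, and pandas 2.3.3, scipy 1.17.1 and matplotlib 3.10.9 under Python 3.11.15.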

Additional observations from a re-analysis of the deposited data

How the results depend on the processing

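Over the 7 tested genes, 4 comparisons and all other settings there were 500 log2 changes, of which 385 kept their direction and side of the threshold, 91 kept their direction but lost the call, 17 gained it and 7 changed sign. None of the 7 that changed sign was a call. They were Igf2bp2 at E18.5 against the early stages (-0.088 in limma and -0.078 in edgeR without E18.5 replicate 2, -0.08 and -0.0028 without E15.5), Hmga1 at P14 against E18.5 (0.0042 without E18.5 replicate 2) and Arid3b at P14 against E18.5 (-0.41 in limma and -0.52 in edgeR without E18.5 replicate 1). With single libraries left out, limma's highest value for Igf2bp2 was 0.82, its lowest for Hmga1 was -0.20 and its highest for Arid3b was 0.97. Of the 6 genes called in the F test, 5 were called without robust variance estimates, where Igf2bp2 was lost. The number was 4 without the filter on low values, where Hmga1 and Igf2bp2 were lost. It was also 4 with the replicate block, where Igf2bp2 and Trim71 were lost. Of the 5 genes called at P56 against E18.5, 3 were called with a pseudocount of 5, without robust variance estimates and with the replicate block, and 2 without the filter on low values. Of the 5 called at E18.5 against the early stages, the number was 3 with a pseudocount of 0.5, without the filter, without robust variance estimates, in DESeq2 and with the replicate block. Of the 2 called at P14 against E18.5, the number was 1 with a pseudocount of 0.5, without the filter and with the replicate block, and 0 without robust variance estimates. Over all genes, the F test called 3930, against 2550 without robust variance estimates and 1561 with the replicate block. P56 against E18.5 called 1843, against 679 without the filter, 1125 without robust variance estimates and 894 with the block. E18.5 against the early stages called 3779, against 2412 in DESeq2 and 1893 with the block. P14 against E18.5 called 403, against 1051 without the filter, 6 without robust variance estimates, 686 in edgeR and 16 with the block. P56 against P14 called 106, against 800 without the filter, 267 in edgeR, 196 in DESeq2 and 0 both without robust variance estimates and with the block. The causes were not tested. The labels do not say whether libraries with the same replicate number were handled together. Replicate 1 deviations at E18.5 and P56 had a correlation of 0.00982 over 12964 genes, which cannot settle this. The block leaves 1 residual degree of freedom.

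With a library of E18.5 or P56 left out, limma also has 1 residual degree of freedom and called no gene in any comparison. In edgeR the genes described that were called numbered 6 to 7 in the F test, 4 to 7 at P56 against E18.5, 1 to 5 at E18.5 against the early stages, 2 to 3 at P14 against E18.5 and 0 to 2 at P56 against P14, and limma without E13.5 or E15.5 called 1 and 5 at E18.5 against the early stages. Over all genes these edgeR fits called 3636 to 6872 in the F test (6557 without E18.5 replicate 2), 1204 to 2798 at P56 against E18.5 and 1660 to 4534 at E18.5 against the early stages, where limma called 0 to 3772. They called 559 to 1620 at P14 against E18.5 (1154 without E18.5 replicate 2, 759 without P56 replicate 2) and 128 to 745 at P56 against P14 (731 without E18.5 replicate 2, 203 without P56 replicate 2). Rescaling to an equal total per library moved the median log2 change of all genes by -0.13 at E18.5 against the early stages, where higher calls were 45.0% in place of 54.1%, and the directions of the called genes described here stayed. Depth limits Lin28a, Trim71, Arid3b and late Hmga2, which rest on few reads.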

Other observations

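Of transcripts that host let-7 genes, Mir99ahg and Mirlet7bhg were looked at, and other hosts were not analysed here. Mir99ahg, which holds Mirlet7c-1, had 0 reads in the E13.5 library, 1 in E15.5, 0 and 2 in the E18.5 pair, 4 in P14 and 0 and 8 in the P56 pair. Mirlet7bhg had 1 read in all 7 libraries together, at P56. Arid3a, the relative of Arid3b, had a scaled count of 9.69 in the E13.5 library, 3.59 in E15.5, 2.31 and 1.13 in the E18.5 pair, 6.88 in P14 and 1.42 and 4.86 in the P56 pair. Unlike Arid3b it was highest at E13.5. Its lowest stage mean was at E18.5, which rests on 9 reads, and the E18.5 libraries overlapped those of P56. Its log2 change at E18.5 against the early stages was -1.40 (limma, adjusted p = 0.103), where that of Arid3b was 2.06 (limma, adjusted p = 0.0321), and the difference between the genes was not tested.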
